A study of Eriocheir sinensis with 2 samples.

Results

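Unigenes whose best protein hit names an enzyme, transporter or receptor of glycogen, trehalose, glycolysis or the pentose phosphate pathway were examined in the Y-organ of *Eriocheir sinensis*, the Chinese mitten crab. The selection used 16 words of the nr annotation, such as glycogen, trehalase, aldolase and transketolase, and it took 38 of the 47966 unigenes with reads. Only 13314 unigenes carry an nr annotation, so unannotated unigenes of these pathways are not among the 38. One further unigene with a matching name, a glyceraldehyde-3-phosphate dehydrogenase whose best hit is the ciliate *Tetrahymena*, was left out, with 19 reads in C1 and 105 in C0. Sample C1 came from the Y-organs of 30 crabs taken 48 h after eyestalk ablation, and sample C0 from those of 30 crabs with untreated eyestalks. The crabs of both groups weighed 5 to 6 g and their age is not given in the sources used here. The Y-organs of a group gave 1 library, so the spread between crabs cannot be measured. No sham operation is named for the C0 crabs, so the wound and the loss of the eyestalk cannot be told apart.

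The Y-organ secretes ecdysteroids, the hormones of molting, and the eyestalk holds neuroendocrine tissue that restrains it. In crustaceans glucose is stored as glycogen and circulates mainly as glucose, while the disaccharide trehalose, the main blood sugar of insects, is also present. Glycolysis splits glucose to pyruvate and yields ATP and NADH, while the pentose phosphate pathway yields NADPH, the reductant of sterol and lipid synthesis and of many cytochrome P450 enzymes, and ribose for nucleotides.

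The sum of unigene reads was 3750847 in C1 and 4152469 in C0. Differentially expressed unigenes (DEUs) had to pass both of the study's thresholds, an adjusted p no higher than 0.001 and a log2 ratio (C1/C0) past 1 or -1, here taken with 0.5 read added on each side. The p-value is that of an exact binomial test on the reads of C1 and C0, adjusted by Benjamini-Hochberg over all 47966 unigenes. It compares the 2 libraries and not the conditions. Intervals are 95% intervals of counting error only, since PCR copies of a fragment are not independent molecules. Ecdysteroid synthesis genes, the mark of the Y-organ, held 6.96% of the reads in C1 and 6.71% in C0. Of these, 6.91% (C1) and 6.68% (C0) fell on 1 unigene, Unigene19254_A0A (log2 ratio 0.05). The median log2 ratio of the 4 unigenes of the list with at least 10 reads was 0.58, with 1 higher DEU, an ecdysteroid 22-hydroxylase. In a bulk tissue sample, fewer cells of a type and less RNA per cell cannot be told apart.

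Together the 38 unigenes had 19772 reads in C1 and 13229 in C0, or 0.527% (95% interval 0.520 to 0.535%) of the unigene reads in C1 and 0.319% (0.313 to 0.324%) in C0. The log2 ratio of the sums was 0.73 (95% interval 0.69 to 0.76), a 1.65-fold higher level in C1, and it was 0.56 with the TMM library factors of edgeR. The groups of enzymes differed. Among the pathways with more than 1 unigene, the 3 pentose phosphate unigenes had the highest summed ratio, 1.28 (1.20 to 1.35), with 4585 reads in C1 and 2097 in C0. The 9 unigenes placed in glycolysis had 11913 reads in C1 and 7975 in C0, a log2 ratio of 0.73 (0.68 to 0.77). Of these reads, 8076 in C1 and 6331 in C0 fell on fructose-bisphosphate aldolase. Several other glycolysis enzymes are not among the 9, because the annotation spells them otherwise or gives no enzyme name. For the 7 unigenes of glycogen, 2534 reads were counted in C1 and 2015 in C0, a log2 ratio of 0.48 (0.39 to 0.56). The 7 trehalose unigenes had fewer reads in C1, 508 against 828 in C0, and their log2 ratio was -0.56 (-0.72 to -0.40).

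Of the 38 unigenes, 4 were DEUs with a higher level in C1, and 1 was a DEU with a lower level. Over all unigenes with reads, 2.32% were higher DEUs and 1.70% lower ones, but most of those unigenes have few reads. Among all unigenes with 50 or more reads (C1 and C0 summed) the shares were 8.66% and 6.40%, and all 5 called members were among the 22 members with at least 50 reads. With 22 unigenes, a count of 4 higher and 1 lower is small, and nothing particular to these pathways is read from it. The adjusted p alone was at most 0.001 for 9 members with a positive ratio and 2 with a negative ratio. Of the 30 members with at least 10 reads, 23 had a positive log2 ratio and 7 a negative one, and the median was 0.57, beside 0.15 for the 30436 unigenes of the series with as many reads. With TMM factors, which shift every log2 ratio by -0.17, 18 of the 30 were positive, and the medians were 0.40 for the members and -0.02 for all unigenes. The difference between the medians was larger for the 9 members with at least 500 reads (median 0.87, beside 0.11 for all such unigenes) than for the 22 with at least 50 (0.35, beside 0.20).

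**Figure D1:**
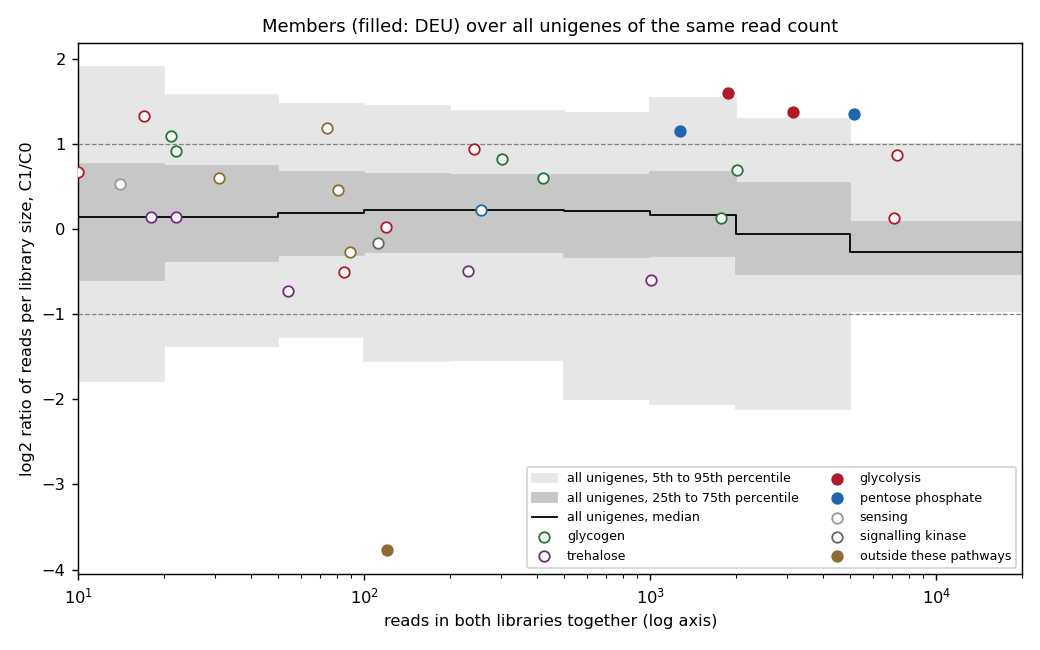
The log2 ratio (C1/C0) of each of the 30 members with at least 10 reads is plotted over its reads in C1 and C0 summed, with filled points for DEUs. Grey bands and the black line give the percentiles and the median of all unigenes in the same range of reads, and dashed lines mark log2 ratios of 1 and -1. The 4 higher DEUs lie above 1 with more than 1000 reads each, and phosphoglycerate dehydrogenase lies alone at -3.77.

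The glycolysis members that were DEUs, both with a higher level in C1, were unigenes of phosphoglycerate kinase and triosephosphate isomerase. Of the 9 glycolysis members, 8 had a positive log2 ratio and 1 a negative one. Phosphoglycerate kinase, which makes ATP in the lower part of the pathway, was found on 1 unigene, Unigene20292_A0A (1723 bp). It had 1370 reads and an RPKM of 212 in C1, against 497 reads and an RPKM of 69.5 in C0. The level was 3.05-fold higher in C1, with a log2 ratio of 1.61 (95% interval 1.46 to 1.76, exact binomial test, adjusted p = 6.85e-112). Triosephosphate isomerase, which interconverts the triose phosphates, has its main unigene in Unigene19969_A0A (2741 bp). It had 2206 reads and an RPKM of 215 in C1, against 936 reads and an RPKM of 82.2 in C0. Its log2 ratio was 1.38 (1.27 to 1.49, exact binomial test, adjusted p = 5.97e-144). Both unigenes were covered by reads over at least 98.7% of their length. The other 2 triosephosphate isomerase unigenes are short and did not follow the main one. Unigene46400_A0A (422 bp) had 57 reads in C1 and 62 in C0, and Unigene7557_A0A (486 bp) had 33 in C1 and 52 in C0, and neither was a DEU. The ratio of the 3 summed unigenes was 1.28.

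Fructose-bisphosphate aldolase, the enzyme that cleaves fructose 1,6-bisphosphate, had the highest levels of all members, but its 2 unigenes differed. Unigene19089_A0A had 4527 reads and an RPKM of 753 in C1, against 2750 reads and an RPKM of 413 in C0, and its log2 ratio of 0.87 (0.80 to 0.93) was below the threshold of 1 although the exact binomial test gave an adjusted p of 6.95e-138. For Unigene19088_A0A the reads numbered 3549 in C1 and 3581 in C0, with an RPKM of 339 in C1 and 309 in C0. The log2 ratio was 0.13 (0.07 to 0.20), and -0.04 with TMM factors, so its direction depends on the library size. The intervals of the 2 ratios do not overlap. Both unigenes carry the same annotation and follow each other in the numbering of the assembly, and reads covered 40.9% and 41.0% of Unigene19089_A0A (C1 and C0) and 66.7% of Unigene19088_A0A in both libraries. When RPKM was taken over the covered length alone, Unigene19089_A0A had 1843 in C1 and 1006 in C0, and Unigene19088_A0A had 509 in C1 and 464 in C0. Reads that map equally well to both were not counted by the authors, who kept uniquely mapped reads, so the values of each single unigene are uncertain. The 2 unigenes summed gave 8076 reads in C1 and 6331 in C0, a log2 ratio of 0.50 (0.45 to 0.55).

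L-lactate dehydrogenase, which regenerates NAD+ by reducing pyruvate to lactate, was found on 2 unigenes of equal length, 2090 bp. Unigene20768_A0A had 153 reads in C1 and 88 in C0, an RPKM of 19.5 in C1 and 10.1 in C0, and a log2 ratio of 0.94 (0.57 to 1.32, exact binomial test, adjusted p = 1.88e-05). Unigene20767_A0A had 12 reads in C1 and 5 in C0. Neither was a DEU, and the reads of the first covered only 10.3% of its length in C1 and 9.57% in C0. Summed, they had 165 reads in C1 and 93 in C0, a log2 ratio of 0.97 (0.61 to 1.34). A unigene annotated as glucose-6-phosphate 1-epimerase, which interconverts the anomers of glucose 6-phosphate, had 6 reads in C1 and 4 in C0 and no detectable difference at this depth.

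In the pentose phosphate pathway, transketolase and transaldolase of the non-oxidative branch rose. Transketolase, which moves 2-carbon units between sugar phosphates, had 3601 reads and an RPKM of 362 in C1 on Unigene20167_A0A (2655 bp), against 1552 reads and an RPKM of 141 in C0. The log2 ratio was 1.36 (1.28 to 1.45, exact binomial test, adjusted p = 2.68e-229), a 2.57-fold higher level in C1. Its best hit is named transketolase-like protein 2. Transaldolase, which moves 3-carbon units, had 853 reads and an RPKM of 158 in C1 on Unigene7924_A0A (1437 bp), against 421 reads and an RPKM of 70.6 in C0. Its log2 ratio was 1.16 (1.0 to 1.33, exact binomial test, adjusted p = 2.12e-42), but with TMM factors it rounded to 1.0, just under the threshold, and the call was lost. Among the members, the oxidative branch was represented only by 6-phosphogluconate dehydrogenase, an enzyme that yields NADPH. Its Unigene50917_A0A (588 bp) had 131 reads and an RPKM of 59.4 in C1, against 124 reads and an RPKM of 50.8 in C0, and the log2 ratio of 0.23 had an interval of -0.13 to 0.58. This interval lies below those of transketolase and transaldolase.

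**Figure D2:**
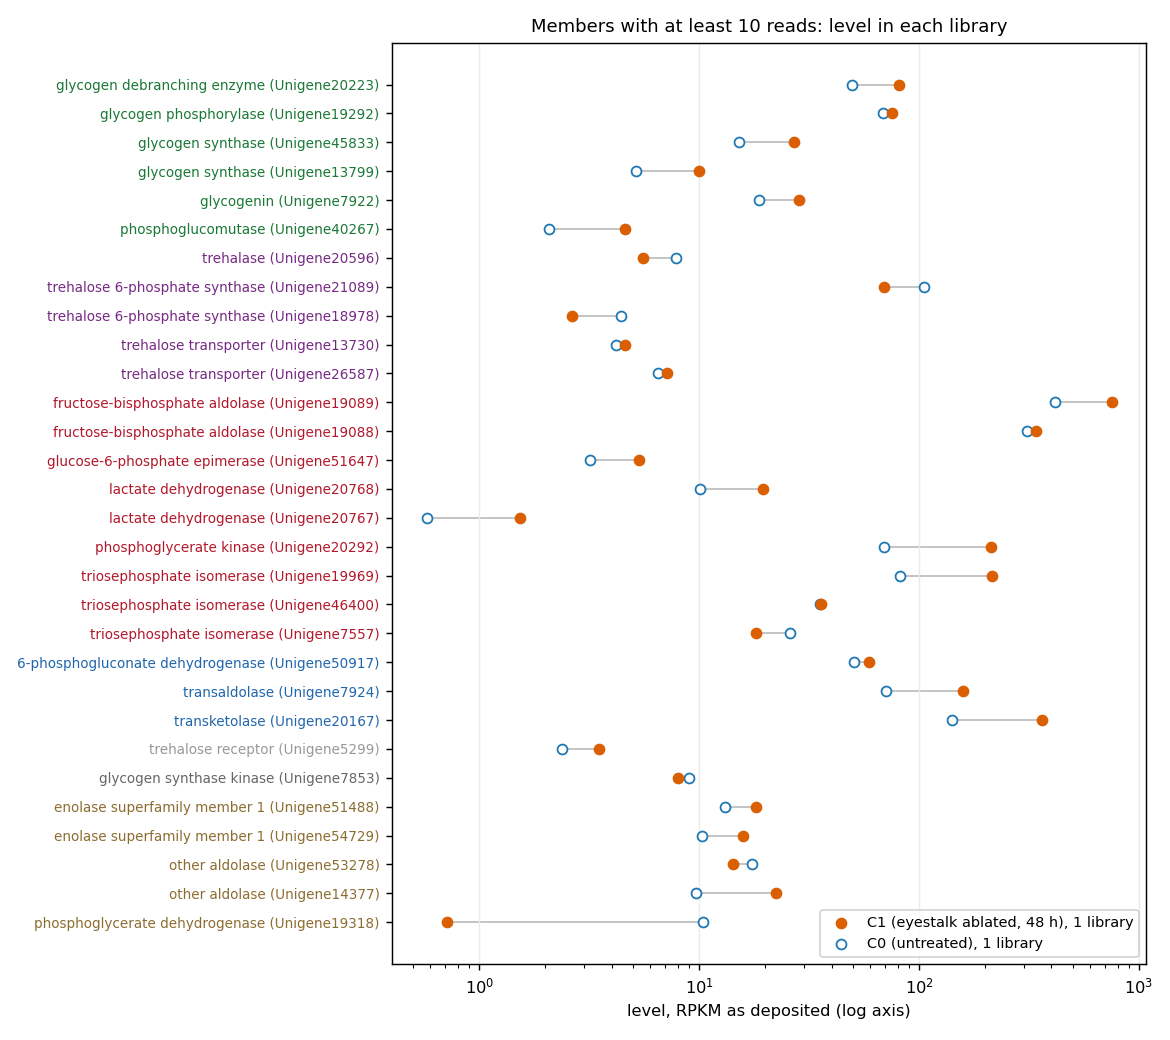
The deposited RPKM of each member with at least 10 reads is shown on a log axis, with filled orange points for C1 and open blue points for C0, 1 library each. Labels are coloured by group (green glycogen, purple trehalose, red glycolysis, blue pentose phosphate, grey sensing and signalling, brown outside these pathways). Fructose-bisphosphate aldolase and transketolase had the highest levels, and phosphoglycerate dehydrogenase, at 0.716 in C1 and 10.4 in C0, has the points that lie farthest apart. The point of C1 also lies left of C0 for both trehalose 6-phosphate synthase unigenes, trehalase, Unigene7557_A0A, glycogen synthase kinase and Unigene53278_A0A.

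No glycogen unigene was a DEU. The log2 ratio was positive for all 6 with at least 10 reads, and with TMM factors for 5 of them. Glycogen debranching enzyme, which removes the branch points during breakdown, had the most reads in C1 of this group. Its Unigene20223_A0A (3939 bp) had 1193 reads and an RPKM of 80.7 in C1, against 814 reads and an RPKM of 49.8 in C0, with a log2 ratio of 0.70 (0.57 to 0.83, exact binomial test, adjusted p = 5.43e-25). Glycogen phosphorylase, which releases glucose 1-phosphate from glycogen, had nearly the same reads in both, 884 in C1 and 887 in C0 on Unigene19292_A0A (3112 bp). Its RPKM was 75.7 in C1 and 68.6 in C0, and the log2 ratio of 0.14 (0.01 to 0.28) became -0.03 with TMM factors. The intervals of these enzymes of glycogen breakdown do not overlap.

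The enzymes that build glycogen had lower RPKM values than those of its breakdown in both libraries. Glycogenin, the protein primer of a new glycogen particle, had 243 reads and an RPKM of 28.4 in C1 on Unigene7922_A0A, against 177 reads and an RPKM of 18.7 in C0 (log2 ratio 0.60, 0.32 to 0.88). Glycogen synthase, which extends the chains, had 186 reads and an RPKM of 26.9 in C1 on Unigene45833_A0A, against 116 reads and an RPKM of 15.1 in C0. Its log2 ratio was 0.83 (0.49 to 1.16, exact binomial test, adjusted p = 2.64e-05), which passed the p threshold but not the ratio. A short second unigene of glycogen synthase, Unigene13799_A0A (372 bp), had 14 reads in C1 and 8 in C0. Phosphoglucomutase, which links glucose 1-phosphate to glucose 6-phosphate, had few reads among the members. Unigene40267_A0A had 14 in C1 and 7 in C0, and Unigene11367_A0A, whose annotation names phosphoglucomutase and phosphomannomutase, had 0 in C1 and 6 in C0. With 0 reads, a share as high as 8.00e-05% of the C1 total is still possible (the limit set by 3 counts). Glycogen synthase kinase 3 beta, a signalling kinase with many substrates besides glycogen synthase, had 50 reads in C1 and 62 in C0 on Unigene7853_A0A (log2 ratio -0.16, -0.70 to 0.37).

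Trehalose 6-phosphate synthase and trehalase, the enzymes that make and cleave trehalose, both had summed ratios below 0, and none of their unigenes was a DEU. Trehalose 6-phosphate synthase had 376 reads and an RPKM of 69.6 in C1 on Unigene21089_A0A (1440 bp), against 629 reads and an RPKM of 105 in C0. The log2 ratio was -0.59 (-0.78 to -0.41, exact binomial test, adjusted p = 5.69e-09), and -0.76 with TMM factors, so the threshold of -1 was not reached under either. Unigene18978_A0A, annotated as isoform 1 of the same enzyme, had 19 reads in C1 and 35 in C0 over 8.60% (C1) and 9.22% (C0) of its length, and its neighbour Unigene18979_A0A had 0 in C1 and 1 in C0. The 3 unigenes summed gave a log2 ratio of -0.60 (-0.78 to -0.43). Trehalase had 90 reads and an RPKM of 5.58 in C1 on Unigene20596_A0A (4302 bp, annotated as the membrane-bound form), against 140 reads and an RPKM of 7.84 in C0. Its log2 ratio was -0.49 (-0.87 to -0.11), and the exact binomial test gave an adjusted p of 0.0886. A fragment of 279 bp, Unigene28294_A0A, had 3 reads in each library.

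Proteins that carry or sense trehalose were rare. The unigenes annotated as facilitated trehalose transporters, Unigene13730_A0A and Unigene26587_A0A, had 11 and 9 reads in C1 and the same numbers in C0. Unigene5299_A0A, similar to trehalose receptor 1 of insects, had 8 reads in C1 and 6 in C0. At these counts a difference was not detectable, and the interval of the receptor's log2 ratio ran from -0.90 to 2.03. The unigene annotated as glucose-6-phosphate translocase, a carrier of glucose 6-phosphate, had 1 read in C1 and 0 in C0. Over the trehalose group, 3 of the 5 unigenes with at least 10 reads had a negative log2 ratio, and with TMM factors all 5 were negative. With the median ratio 3 were negative and 0 positive, as the transporters with equal reads lay at 0.00.

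**Figure D3:**
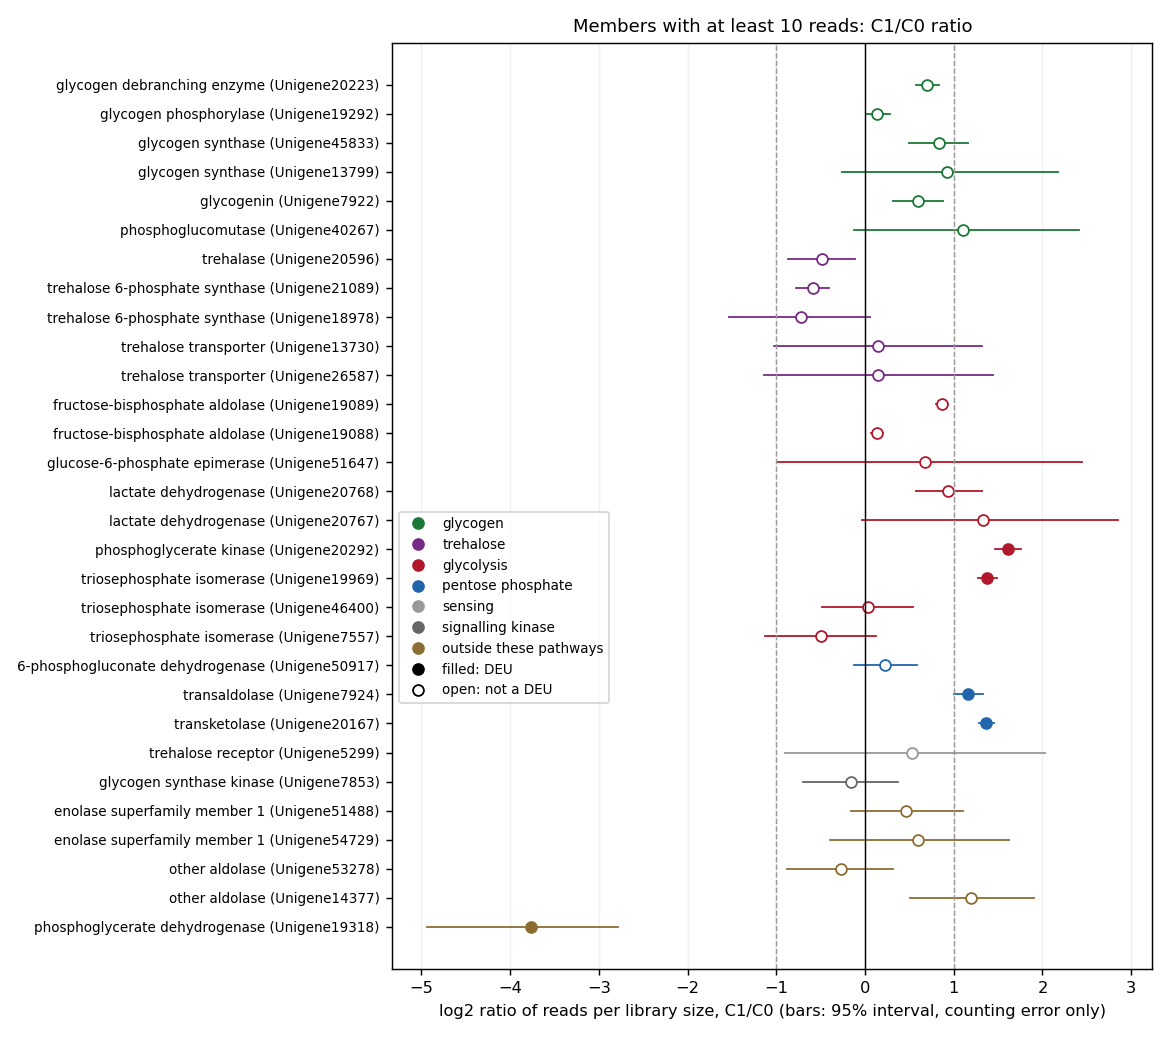
The log2 ratio (C1/C0) of each member with at least 10 reads is shown with its 95% interval of counting error, coloured by group, with filled points for DEUs and dashed lines at 1 and -1. The filled points are phosphoglycerate kinase, triosephosphate isomerase, transaldolase and transketolase above 1 and phosphoglycerate dehydrogenase below -1, and the intervals of trehalase and of Unigene21089_A0A lie below 0.

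The words also selected 9 unigenes of enzymes outside these pathways, and they include the only member that was a lower DEU. D-3-phosphoglycerate dehydrogenase takes 3-phosphoglycerate out of glycolysis as the first step of serine synthesis. Its Unigene19318_A0A (2606 bp) had 7 reads and an RPKM of 0.716 in C1, against 113 reads and an RPKM of 10.4 in C0, a log2 ratio of -3.77 (-4.94 to -2.79, exact binomial test, adjusted p = 1.22e-21). The reads covered 9.90% of the unigene in C1 and 25.3% in C0, or 258 and 660 bp. Its best hit is a vertebrate protein. The ratio was -3.94 with TMM factors, and the call held with an assumed coefficient of variation between pools of 0.2 but not of 0.4.

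The name enolase selected 4 unigenes of enolase superfamily member 1, a mitochondrial protein that is not the glycolytic enzyme. They had 70 reads in C1 and 56 in C0 together, and none was a DEU. The word aldolase selected 4 unigenes of other lyases. The one annotated as 4-hydroxy-2-oxoglutarate aldolase, a mitochondrial enzyme of hydroxyproline breakdown, is Unigene14377_A0A, with 50 reads in C1 and 24 in C0. Its log2 ratio was 1.19 (0.51 to 1.90), but the exact binomial test gave an adjusted p of 0.00807, which did not pass. The 2-deoxyribose-5-phosphate aldolase homolog Unigene53278_A0A, of nucleoside breakdown, had 38 reads in C1 and 51 in C0. A threonine aldolase had 7 reads in C1 and 2 in C0, and an N-acetylneuraminate lyase 1 in C1 and 0 in C0.

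The length, level and best hits of the members were also described. Every member has an nr annotation, which only 13314 of the 47966 unigenes carry, and a comparison with annotated unigenes alone was not made. The members were long for this assembly, with a median of 759 bp (214 to 4302 bp) beside 316 bp for all unigenes with reads. Their median RPKM was 12.2 in C1 and 9.91 in C0, beside 6.33 and 5.85 for all. Best hits were insect proteins for 15 members, crustacean proteins for 10 and vertebrate proteins for 6. The reads were concentrated on few unigenes, as 3 of the 38 (both aldolases and transketolase) held 59.1% of the members' reads in C1 and 59.6% in C0. At the other end, 10 members had fewer than 16 reads in C1 and C0 summed, the fewest with which any unigene was a DEU.

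Read coverage set some members apart. Among the 6183 unigenes with at least 100 reads, the median coverage was 95.3% in C1 and 95.6% in C0, and 3.66% (C1) and 3.14% (C0) of them were covered over less than 50% of their length. Of the 17 members with at least 100 reads, 3 were below 50% in each library, namely Unigene19089_A0A (aldolase), Unigene20768_A0A (lactate dehydrogenase) and Unigene19318_A0A (phosphoglycerate dehydrogenase). The first 2 have a neighbour of the same annotation in the numbering. The 4 higher DEUs were all covered over at least 97.0% in both libraries. Whether shared sequence accounts for the uncovered parts was not tested.

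**Figure D4:**
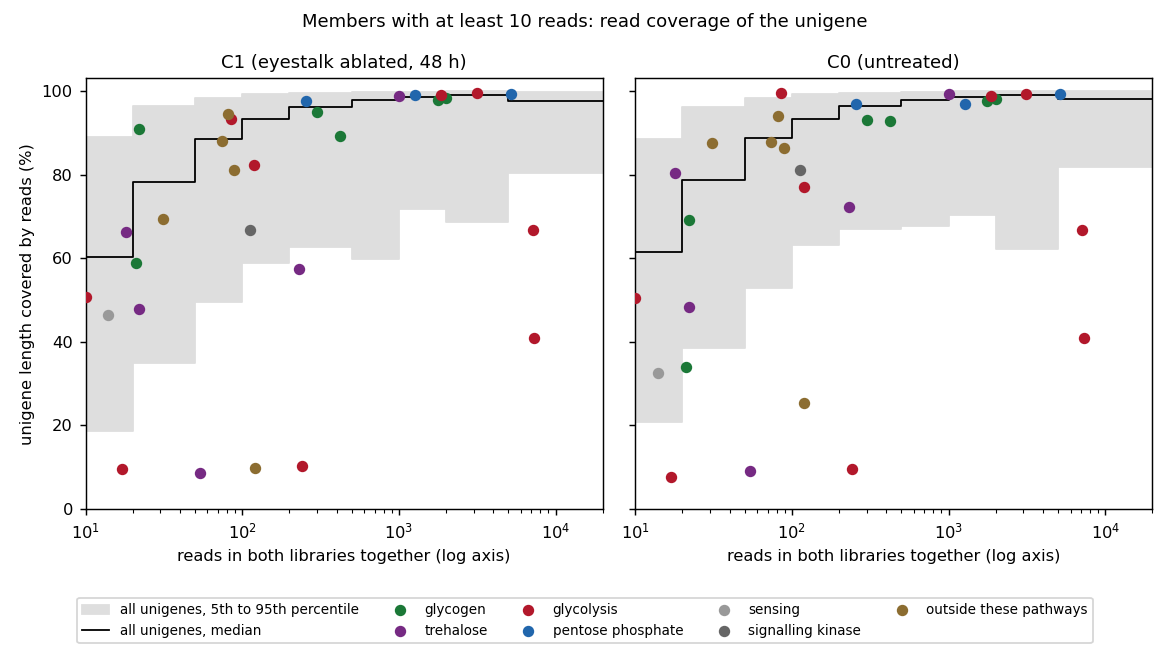
The percentage of each member's length covered by reads is plotted over its reads in C1 and C0 summed, C1 in the left panel and C0 in the right, coloured by group. The grey band and black line give the 5th to 95th percentile and the median of all unigenes in the same range of reads. The points far below the band are both lactate dehydrogenase unigenes, Unigene18978_A0A, phosphoglycerate dehydrogenase and the aldolase Unigene19089_A0A. The other aldolase, Unigene19088_A0A, at 66.7% in both libraries, also lies below the 5th percentile (80.4% in C1 and 81.7% in C0).

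Several enzymes of glycolysis do not appear among the 38, because the annotation spells them otherwise (glyceraldehyde 3-phosphate dehydrogenase without a hyphen, phosphopyruvate hydratase for enolase) or gives no enzyme name. The words glyceraldehyde-3-phosphate, phosphoenolpyruvate carboxykinase and fructose-1,6 selected 0 members. The unigenes of 27 reaction steps were therefore looked up, by reaction, in the unigene lists of the study's metabolic network, after the values of the members were known. These lists hold 66 unigenes with reads, of which 21 are members and 45 are not. Of the 45, 7 were DEUs with a higher level in C1 and 0 with a lower level, beside 2.32% and 1.70% of all unigenes, or 8.66% and 6.40% of those with 50 or more reads. Their names are given here with that choice in view.

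Summed over the unigenes of a step, 24 steps had at least 50 reads, and 21 of them had a positive log2 ratio. Of all single unigenes with 50 or more reads, 61.3% had a positive ratio, and their median was 0.20. The interval lay above 0 for 18 steps and below 0 for 2, trehalose 6-phosphate synthase and trehalase. All 10 glycolysis steps with at least 50 reads had a positive ratio, and 6 had a ratio above 1. With TMM factors the steps of 6-phosphofructokinase (0.87) and enolase (0.98) were no longer above 1. The step of glucose-6-phosphate isomerase, at 0.77, includes Unigene48216_A0A, whose best hit is another protein, twisted gastrulation. Without it that step was at 1.06, and 7 steps were above 1. The levels of phosphoglycerate mutase (Unigene19355_A0A, 1343 reads in C1 and 443 in C0, log2 ratio 1.75) and of glyceraldehyde-3-phosphate dehydrogenase (Unigene18683_A0A, 10921 reads in C1 and 4580 in C0, log2 ratio 1.40) rose. These are the steps on either side of phosphoglycerate kinase. The other 13 unigenes listed for glyceraldehyde-3-phosphate dehydrogenase had 101 reads in C1 and 180 in C0 together, 9 of them had a negative ratio, and 0 were DEUs. Glycolytic enolase (Unigene18856_A0A) had 5489 reads in C1 and 2734 in C0, a log2 ratio of 1.15 that was 0.98 with TMM factors. Glucose-6-phosphate isomerase (Unigene21101_A0A) had 785 reads in C1 and 417 in C0, a log2 ratio of 1.06 that was 0.89 with TMM factors. The single unigene of 6-phosphofructokinase, Unigene8597_A0A, was also a DEU, but not with TMM factors (0.87). The steps at the ends of the pathway had fewer reads. Hexokinase, which traps glucose as glucose 6-phosphate, had 18 in C1 and 20 in C0, and pyruvate kinase had 182 in C1 and 139 in C0, with a log2 ratio of 0.53 (0.22 to 0.85).

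Enzymes of gluconeogenesis, the route back to glucose, were also higher in C1. Fructose-1,6-bisphosphatase, which opposes phosphofructokinase, had 2323 reads in C1 and 581 in C0 on Unigene7796_A0A, a log2 ratio of 2.15 (2.02 to 2.28), the highest of the 24 steps. Phosphoenolpyruvate carboxykinase, which makes phosphoenolpyruvate from oxaloacetate, had 15086 reads in C1 and 8003 in C0 on Unigene18735_A0A, more than any other unigene of these steps. Its log2 ratio was 1.06 (1.02 to 1.10), and 0.89 with TMM factors. Of the 7 DEUs that are not members, 3 kept a ratio above 1 with TMM factors, namely those of glyceraldehyde-3-phosphate dehydrogenase, phosphoglycerate mutase and fructose-1,6-bisphosphatase. The isomerase and epimerase of the non-oxidative pentose phosphate branch, which are not members, were rare. Ribose-5-phosphate isomerase had 51 reads in C1 and 48 in C0 (log2 ratio 0.23, -0.33 to 0.80), and ribulose-phosphate 3-epimerase had 6 in C1 and 11 in C0. In the oxidative branch, glucose-6-phosphate dehydrogenase had 23 reads in C1 and 9 in C0, with a log2 ratio of 1.45 (0.41 to 2.59). None of its unigenes was a DEU. For 6-phosphogluconolactonase, 57 reads were counted in C1 and 43 in C0, with a log2 ratio of 0.55 (-0.01 to 1.12). A second unigene listed for glycogen phosphorylase, Unigene20615_A0A, had 196 reads in C1 and 367 in C0 (log2 ratio -0.76), and the summed step had a log2 ratio of -0.07 (-0.19 to 0.05). Most reads of the phosphoglucomutase step fell on Unigene45872_A0A, which is not a member. It had 210 reads in C1 and 119 in C0 (log2 ratio 0.96), and the summed step had a log2 ratio of 0.91 (0.60 to 1.22).

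**Figure D5:**
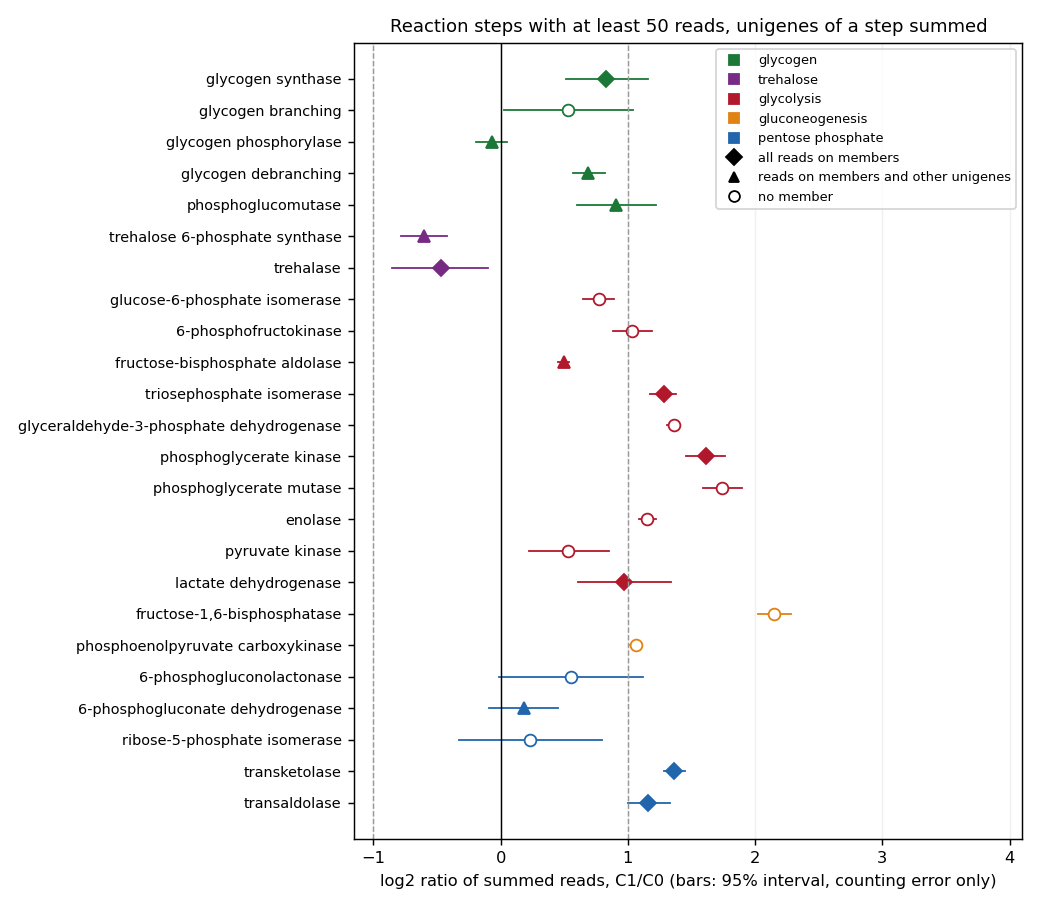
The log2 ratio (C1/C0) of the summed reads of each of the 24 reaction steps with at least 50 reads is shown with its 95% interval of counting error. Diamonds are steps whose reads all fell on members, triangles steps with members and other unigenes, and open circles steps with no member. The steps from triosephosphate isomerase to enolase lie above 1, both trehalose steps lie below 0, and fructose-1,6-bisphosphatase lies highest at 2.15.

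The GO annotation, which the selection did not use, was also examined, with terms chosen after the values were known. The term glucose catabolic process was given to 30 unigenes, of which 9 are members. Of the 30, 8 were DEUs with a higher level in C1 and 0 with a lower level, and 4 of the 8 kept a ratio above 1 with TMM factors. The shares over all unigenes with at least 50 reads were 8.66% and 6.40%, but some of the 30 have fewer reads. The median log2 ratio of the 27 with at least 10 reads was 0.75. Cytosolic malate dehydrogenase (Unigene20456_A0A), an enzyme of the malate shuttle, was among the 8, with 960 reads in C1 and 525 in C0 and a log2 ratio of 1.02, but 0.85 with TMM factors. The other DEUs of this term are members or unigenes of the reaction steps reported above, so this count is not separate from theirs. Trehalose metabolic process was given to 5 unigenes, of which 4 are members, and the median over 4 with at least 10 reads was -0.54. Glycogen metabolic process was given to 15 unigenes with 0 DEUs, and the median over the 10 with at least 10 reads was 0.18. The medians of the other terms looked up were also taken over unigenes with at least 10 reads. They were 0.32 for glucose metabolic process (14 of 16 unigenes), 0.12 for pentose-phosphate shunt (3) and -0.20 for gluconeogenesis (2 unigenes with 131 reads in C1 and 133 in C0). The term gluconeogenesis was given to neither fructose-1,6-bisphosphatase nor phosphoenolpyruvate carboxykinase.

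Other enzymes around these pathways were taken from a list of names, which selected 27 unigenes outside the members. Together they had 1450 reads in C1 and 1430 in C0, and 2 were DEUs with a higher level while 0 were DEUs with a lower level. Not all of the 27 have 50 or more reads, so this count cannot be set beside the share of 8.66% over all unigenes with that many. A count of 2 is small, and nothing is read from it. One was the E1 beta subunit of pyruvate dehydrogenase (Unigene8216_A0A, 319 reads in C1 and 159 in C0, log2 ratio 1.15, but 0.98 with TMM factors), which passes pyruvate to acetyl-CoA. The other was annotated as 6-phosphofructo-2-kinase/fructose 2,6-bisphosphatase (Unigene20873_A0A, 67 reads in C1 and 30 in C0, log2 ratio 1.29), which makes and breaks down the activator of phosphofructokinase. Pyruvate dehydrogenase kinase, which inhibits pyruvate dehydrogenase, had 328 reads in C1 and 565 in C0 on Unigene8215_A0A. Its log2 ratio of -0.64 (-0.83 to -0.44) passed the p threshold only (exact binomial test, adjusted p = 4.02e-09). The 3 unigenes of glucose transporters had 42 reads in C1 and 71 in C0 together.

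Muscle and hemocytes also use these enzymes, and the summed log2 ratios of their markers were below 0. The 38 muscle marker unigenes had 14372 reads in C1 and 16425 in C0, or 0.383% (0.377 to 0.389%) of the reads in C1 and 0.396% (0.390 to 0.402%) in C0. Of the 38, 1 was a higher DEU and 6 were lower DEUs. The shares were 2.32% and 1.70% over all unigenes, or 8.66% and 6.40% over those with 50 or more reads. The median log2 ratio of the 29 muscle unigenes with at least 10 reads was -0.61. Within this list arginine kinase had 8157 reads in C1 and 6274 in C0 (log2 ratio 0.53), while the 8 troponin unigenes had 1820 in C1 and 4039 in C0 (-1.0). The 13 hemocyte marker unigenes had 1909 reads in C1 and 2949 in C0 (-0.48), and the 17 of hepatopancreas 527 in C1 and 528 in C0 (0.14). The 18 cuticle and epidermis unigenes had 4101 reads in C1 and 2178 in C0, a log2 ratio of 1.06. Of these reads, 4054 in C1 and 2153 in C0 fell on the 10 unigenes named cuticle protein. The median log2 ratio of the 8 cuticle and epidermis unigenes with at least 10 reads was 0.28. Only 1 of the 18 was a DEU, with a higher level in C1, and nothing is read from that count. Twitchin, cryptocyanin and *neverland* were named for 0 unigenes. The part of these tissues in the values of the members was not tested.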

How the data were processed

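Y-organ mRNA of the C1 and C0 pools was sequenced by the authors on an Illumina HiSeq 2000 with single-end reads, which they filtered and aligned by SOAPaligner/soap2, with 1 or 2 mismatches, to unigenes assembled in earlier work. The version of the aligner is not given in the sources used here. The authors deposited, per unigene, a raw count of reads that map uniquely, the RPKM they calculated from it (0 is written as 0.001 in the comparison table), and the coverage in percent of the unigene length. The deposited table also holds the authors' log2 ratios, p-values and false discovery rates, which were not used. Every value column was matched to a sample, so columns without a match numbered 0.

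Counts were analysed with Python 3.11.15, scipy 1.17.1, numpy 2.4.6 and pandas 2.3.3, with figures from matplotlib 3.10.9. The reads of all unigenes were summed as library size, and C1 held 47.5% of them. The test, adjusted p and thresholds are those given with the results, the thresholds being the ones of the study. The test was also run on simulated data, which does not measure the spread between pools. Intervals come from 95% Wilson intervals of the C1 share. Alternatives used edgeR 4.0.16 in R 4.3.3 (TMM factors, and its exact test at coefficients of variation between pools set to 0.1, 0.2 or 0.4), the median ratio, Fisher's exact test, other read minimums and pseudocounts, a log2 threshold of 2, and the same data without ciliate best hits. With 1 library per group no fit with replicates was possible.

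The members, the lists and the reaction steps were chosen with earlier results of these data known. Named are every DEU, the member of each role with the most reads, members with at least 1000 reads in 1 library, and further members as counts. CYP302A1 and CYP315A1 in the Y-organ list were matched as P450 302a1 and 315a1, and names in the other pathway list were matched as whole words, both corrected after values were seen. The network lists were used only to look up reactions, since the copy used here is shortened. No sequences of the unigenes were used here.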

Additional observations from a re-analysis of the deposited data

How the results depend on the processing

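The 4 higher members and the 1 lower member remained the same DEUs with the median ratio, the filter of 10 reads, 1 read added, Fisher's exact test, the data without ciliate best hits and an assumed coefficient of variation of 0.1 (edgeR's exact test). With TMM factors 3 of the 4 remained, without transaldolase. With an assumed coefficient of variation of 0.2 the higher DEUs numbered 0 and the lower one remained. With 0.4 both counts were 0. With a log2 threshold of 2 the higher DEUs numbered 0. When enzymes spelled otherwise or listed for the same reactions were added, a setting added after seeing the data, 11 were higher. Over all unigenes the DEUs numbered 1115 higher and 816 lower, but 730 and 1053 with TMM factors, 757 and 989 with the median ratio, 652 and 585 with an assumed coefficient of variation of 0.1, 101 and 194 with 0.2, 1 and 7 with 0.4, and 312 and 366 with a log2 threshold of 2. The log2 ratio of the summed members was 0.56 with TMM factors, 0.58 with the median ratio and 0.69 without the aldolase Unigene19089_A0A. Among the summed enzymes and the 23 members followed singly, TMM factors turned the sign of glycogen phosphorylase and Unigene19292_A0A (-0.03 both) and of Unigene19088_A0A (-0.04). They also turned that of Unigene13730_A0A and the summed trehalose transporters (-0.02 both). The median ratio turned that of glycogen phosphorylase and Unigene19292_A0A (-0.00) and of Unigene19088_A0A (-0.01). Of all 30 members with at least 10 reads, 23 were positive, but 18 with TMM factors or the median ratio. These shifts come from the library size alone, which moves every ratio by the same amount. No paired analysis was possible because each group has 1 library, and no library could be left out. Under 16 reads in C1 and C0 summed, no unigene of the series was a DEU, and 10 members were that rare.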
